A study of Mus musculus with 12 samples.

Results

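The comparison described here sets all tumours that received entinostat against all that did not. Of the 12 libraries of the series, 6 were chosen by title as carrying the drug, 3 with entinostat alone and 3 with entinostat and an anti-PD-1 antibody, and the other 6 were 3 control and 3 anti-PD-1 libraries. Since the antibody was given to the same number of libraries on both sides, its presence was held as a block. The difference left is that between libraries with and without the drug, whatever else differs between them.

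All 12 tumours came from the lungs of mice with floxed alleles of Rb1 and Trp53 and a Cre-activated allele of Myc with a stabilizing change (Rb1 fl/fl, p53 fl/fl and, for Myc, lsl/lsl T58A; called RPM), a model of small cell lung cancer. Recombination was started at 8 weeks of age by an adenovirus, Ad5CGRP-Cre, that was instilled into the airway and expresses Cre from the promoter of CGRP, a neuroendocrine peptide gene. Control and treated tumours share these alleles and the virus, so nothing here compares tumour with normal lung. Entinostat was given by mouth at 15 mg/kg daily for 28 days. The antibody was given at 10 mg/kg for 4 weeks, and the combination group had both agents. The labels call the control group vehicle and name methylcellulose and an isotype antibody (Rat IgG2a) as control agents, but leave it unsaid which of them the sequenced control mice had. They also leave it unsaid whether the libraries are of separate mice; the p-values rest on the spread among these samples, which may be technical in part.

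Total counts ranged from 34107018 to 54001886 without entinostat and from 31295987 to 40469275 with it. Rb1 and Trp53 were detected in all libraries; bulk tumour also holds cells in which Cre did not act. Levels are given as CPM, the count of a gene relative to its library's total after TMM scaling. Myc lay between 50.6 and 165 CPM (median 95.8) without the drug and between 157 and 273 CPM (median 210.1) with it and rose, a log2 fold change of 1.14 ± 0.24 (adjusted p = 0.0185). The neuroendocrine markers of the label were present in all libraries, with a summed level over 12 genes of 832 to 1585 CPM without entinostat and 503 to 1120 CPM with it. All 12 were lower with the drug (median log2 fold change -0.56) and 2 fell, and with a library left out none to 3 fell. Their score, the mean log2 CPM of the list, was 5.51 ± 0.45 without and 4.67 ± 0.62 with the drug (SD, n = 6 each; exact two-sided permutation test within antibody strata, p = 0.035, adjusted p = 0.24 over 16 library measures), and its part in the falls below was not tested. Markers of fibroblasts and mural cells summed to 226 to 1005 CPM without the drug and 764 to 1626 CPM with it, and 4 of 16 rose (Myh11, Cspg4, Pdgfra and Notch3). The score of this list was 3.56 ± 0.61 and 4.47 ± 0.31 (SD, n = 6 each; same exact permutation test, p = 0.01, adjusted p = 0.16). Alveolar epithelial markers summed to 300 to 990 CPM and 263 to 1613 CPM, macrophage and monocyte markers to 340 to 818 CPM and 290 to 1430 CPM. None of the 16 measures had an adjusted p under 0.05. The smallest p that the 400 permutations allow was 0.005, so a single measure could not pass on its own after adjustment over 16. The lack of a call thus does not show that the measures did not differ. Control library 1 had the lowest alveolar and fibroblast scores of all libraries. It was also lowest for macrophages, T and NK cells, B cells, neutrophils, endothelium, mesothelium and thymus and lymph node stroma. The airway, muscle, adipocyte, erythroid and neuroendocrine scores were lowest in other libraries. In bulk tissue, fewer cells of a type and less RNA per cell cannot be told apart.

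Histone deacetylases of class I, the enzymes that entinostat inhibits, remove acetyl groups from histone tails and from other proteins, and they act mostly within corepressor complexes at promoters and enhancers. When they are blocked, acetylation builds up, silent or weakly active genes often gain expression, and many highly expressed genes lose it. In small cell lung cancer the drug class has been studied for its effects on neuroendocrine identity, growth and antigen presentation. The account below turns to cell machinery and signalling pathways, in 61 lists of genes: first what fell, then what rose.

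With the antibody as a block, 1736 of 17426 tested genes (9.96%) passed an adjusted p of 0.05 by edgeR's quasi-likelihood test with Benjamini-Hochberg adjustment, the test behind every adjusted p below unless another is named. Of these, 681 rose (3.91% of tested genes) and 1055 fell (6.05%), and over all tested genes the median log2 fold change was 0.02. The 6 and 6 libraries did not overlap for 755 tested genes (4.33%), and 658 genes both passed and did not overlap, 297 higher and 361 lower. Which direction holds more genes turned on the scaling. TMM factors put 39.2% of the genes that passed on the higher side, while upper quartile factors moved the median of all genes to 0.15 and put 63.9% there, 1049 higher (6.02% of tested genes) and 593 lower (3.4%). Under both scalings each of the 1736 genes had the same sign.

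The count also depended on single libraries and on whether a cell type score was in the model. Leaving out entinostat library 2 left 460 genes. Without combination library 1, entinostat library 3 or entinostat library 1, 768, 774 and 800 genes passed, and without control library 2, anti-PD-1 library 3, anti-PD-1 library 1 or combination library 3, 937, 938, 951 and 1013. In all 12 fits that left out a library, 434 genes passed, 166 higher and 268 lower. With the fibroblast and mural score as a covariate, 84 genes were higher and 81 lower, and with the alveolar score 76 and 119. Over the 1736 genes, the median ratio of the log2 fold change with the covariate to that without it was 0.91 for the fibroblast and 0.94 for the alveolar score. Under either covariate, no pathway list had more than 2 members past the threshold in one direction. The fibroblast score itself lay between 2.79 and 4.15 without the drug and between 4.01 and 4.99 with it. A part played by cell types and power lost to a covariate that moves with the drug cannot be told apart here.

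Long and short transcripts differed in direction. Among the length quartile with the shortest transcripts (median 1291 bases), 1.87% rose and 10.2% fell, and among that with the longest (median 6107.5 bases), 7.42% rose and 1.89% fell. The median log2 fold change went from -0.11 in the shortest quartile to -0.06, 0.01 and 0.16 in the longest. After the trend of log2 CPM with length was removed in each library, 426 genes were higher (2.44%) and 864 lower (4.96%), and the 4 medians lay between -0.06 and -0.03. The cause of the trend was not tested. Genes named in the text whose call was lost with the trend removed are given beside their values or together after the account of the lists.

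**Figure D1:**
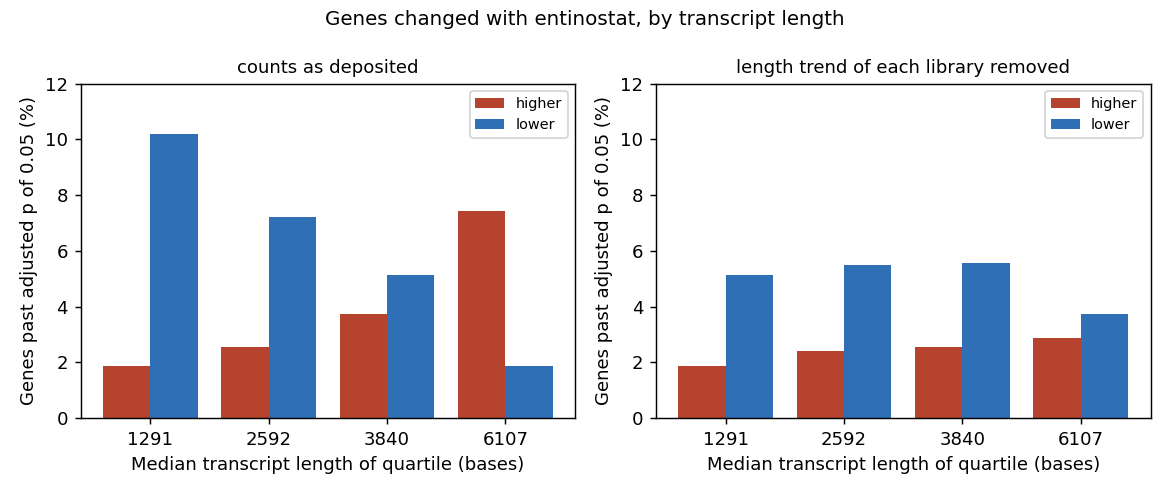
Percent of tested genes that passed an adjusted p of 0.05 with entinostat (red, higher; blue, lower), in quartiles of transcript length named by their median length in bases, with counts as deposited (left) and with the length trend of each library removed (right). As deposited, falls make up 10.2% of the shortest quartile and rises 7.42% of the longest; with the trend removed the quartiles lie between 1.89% and 2.87% for rises.

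**Figure D2:**
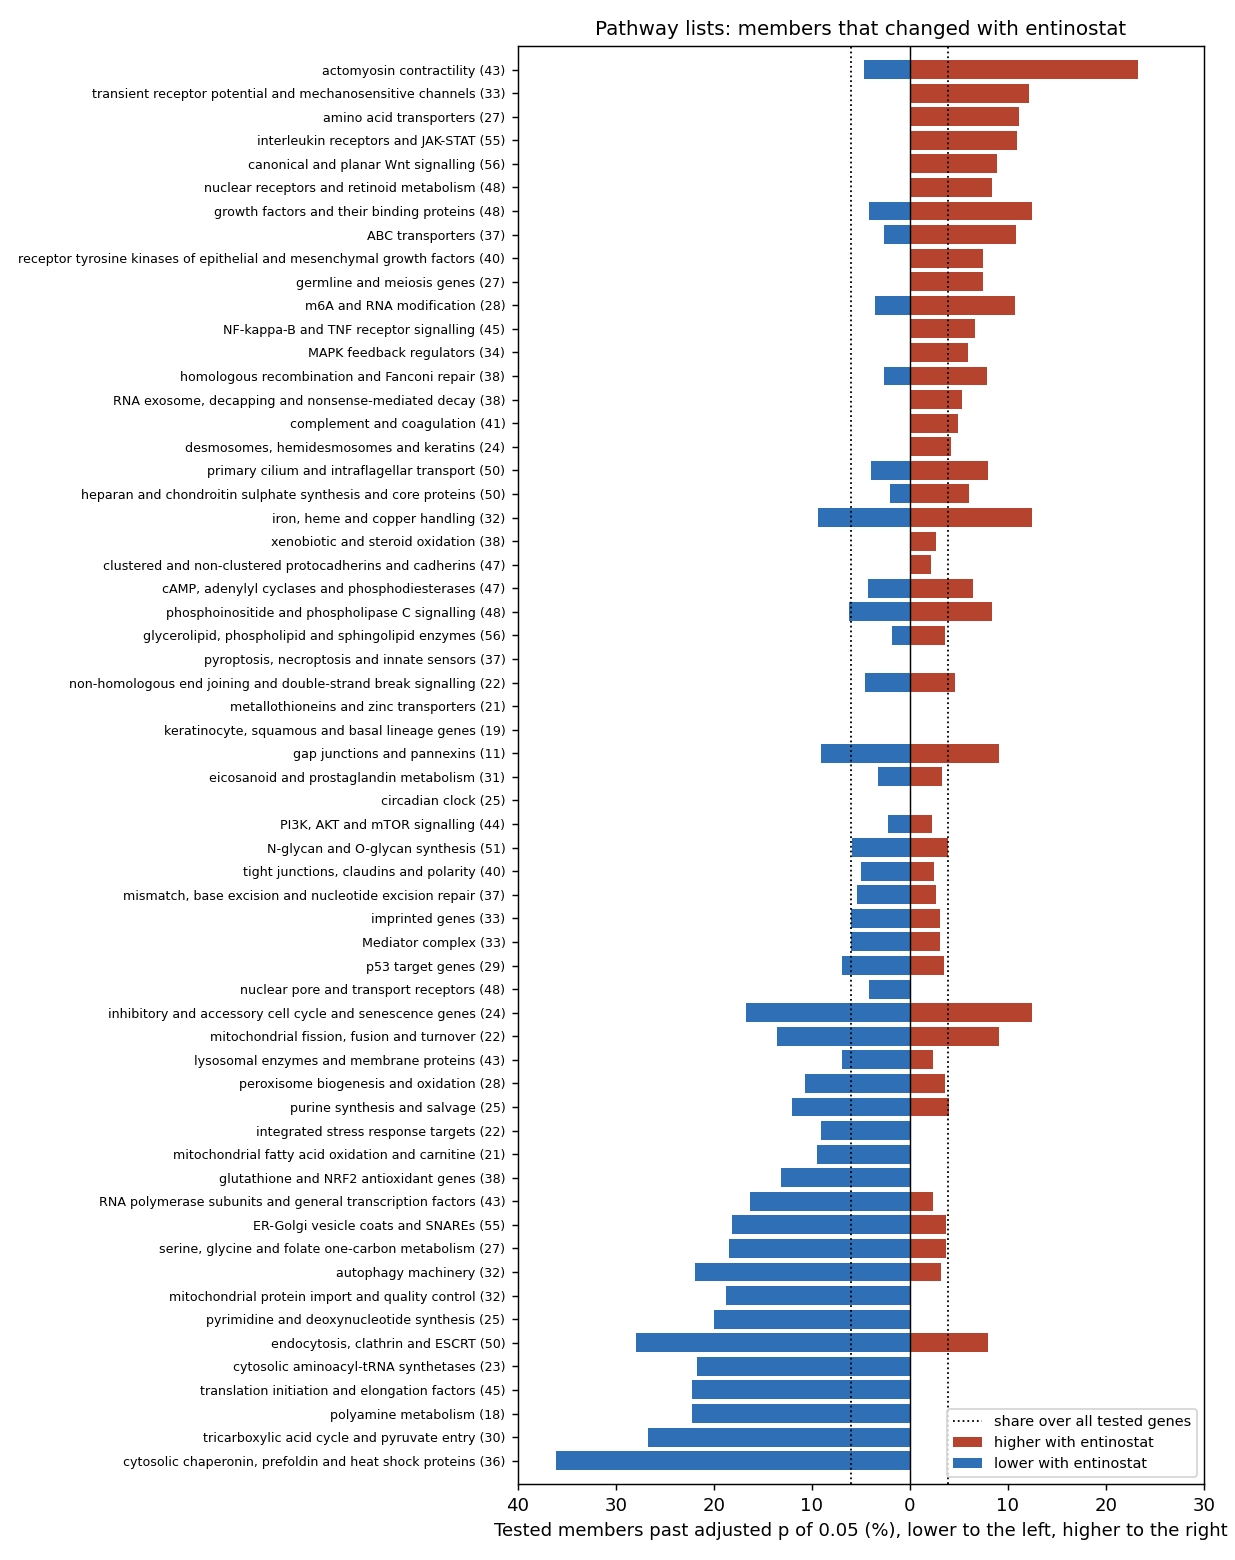
Percent of tested members of 60 of the 61 pathway lists that fell (blue, to the left) or rose (red, to the right) with entinostat; the number of tested members stands in brackets and dotted lines mark the shares over all tested genes (6.05% lower and 3.91% higher). The cytosolic chaperonin list reaches furthest to the left (36.1%) and actomyosin furthest to the right (23.3%).

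The 15 rises with the smallest adjusted p, among genes with a log2 fold change of at least 1 and no overlap, were led by Fat1, Itpr3, Sh3pxd2a, Plod1 and Plxnd1. Fat1, a giant atypical cadherin, lay between 59.6 and 106 CPM (median 65.04) without the drug and between 158 and 278 CPM (median 234) with it; here and below, a range runs from the lowest to the highest of 6 libraries, and where a pair of ranges stands in brackets the first is without the drug. Every entinostat library stood above every library without the drug, a log2 fold change of 1.62 ± 0.20 (adjusted p = 0.00568). Itpr3, the type 3 receptor that releases calcium from the endoplasmic reticulum, lay between 1.11 and 13.7 CPM (median 7.20) without the drug and between 15.3 and 68.8 CPM (median 48.8) with it (log2 fold change 2.79 ± 0.35). Its lowest treated library was above its highest untreated one. The other rises included Plod1, a lysyl hydroxylase of collagen (1.68 ± 0.22), Sh3pxd2a, the podosome scaffold Tks5 (1.92 ± 0.25), Plxnd1 and Sema6a, a semaphorin receptor and a semaphorin (1.38 ± 0.18 and 2.30 ± 0.34), and the fibrillar collagen gene Col11a1 (2.18 ± 0.31). Adamts14, a procollagen N-proteinase, lay between 0.414 and 1.96 CPM (median 1.13) without the drug and between 2.81 and 12.9 CPM (median 7.41) with it, with no overlap.

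The 15 falls were smaller and more even. Hmgb3, a chromatin protein of the high mobility group, lay between 79.9 and 206 CPM (median 117) without the drug and between 32.3 and 58.9 CPM (median 47.3) with it, without overlap (log2 fold change -1.36 ± 0.17; adjusted p = 0.00568). Scg5, the chaperone 7B2 of prohormone convertase 2 in neuroendocrine granules, had the largest fall of the 15 (-1.88 ± 0.24) and lay between 55.7 and 141 CPM (median 96.8) without the drug and between 18.6 and 42.8 CPM (median 24.3) with it. Jun, a subunit of the AP-1 transcription factor, lay between 46.2 and 79.8 CPM (median 54.3) without the drug and between 18.7 and 38.2 CPM (median 28.2) with it (-1.01 ± 0.15). No treated library reached the lowest untreated value of any of these 3 genes. H2afy2, a macroH2A histone variant, Atpif1, the inhibitor of the mitochondrial ATP synthase, Cox5b, a subunit of cytochrome c oxidase, Mrpl54, a mitochondrial ribosomal protein, and Ola1, an ATPase of the Obg family, fell by 1.02 to 1.24 on the log2 scale. Ubl4a, whose product helps insert tail-anchored proteins into membranes, fell together with a row named SlcUbl4a; the rows may share reads and are not counted as independent here. The 15 rises and 15 falls passed in all 12 fits that left out a library.

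**Figure D3:**
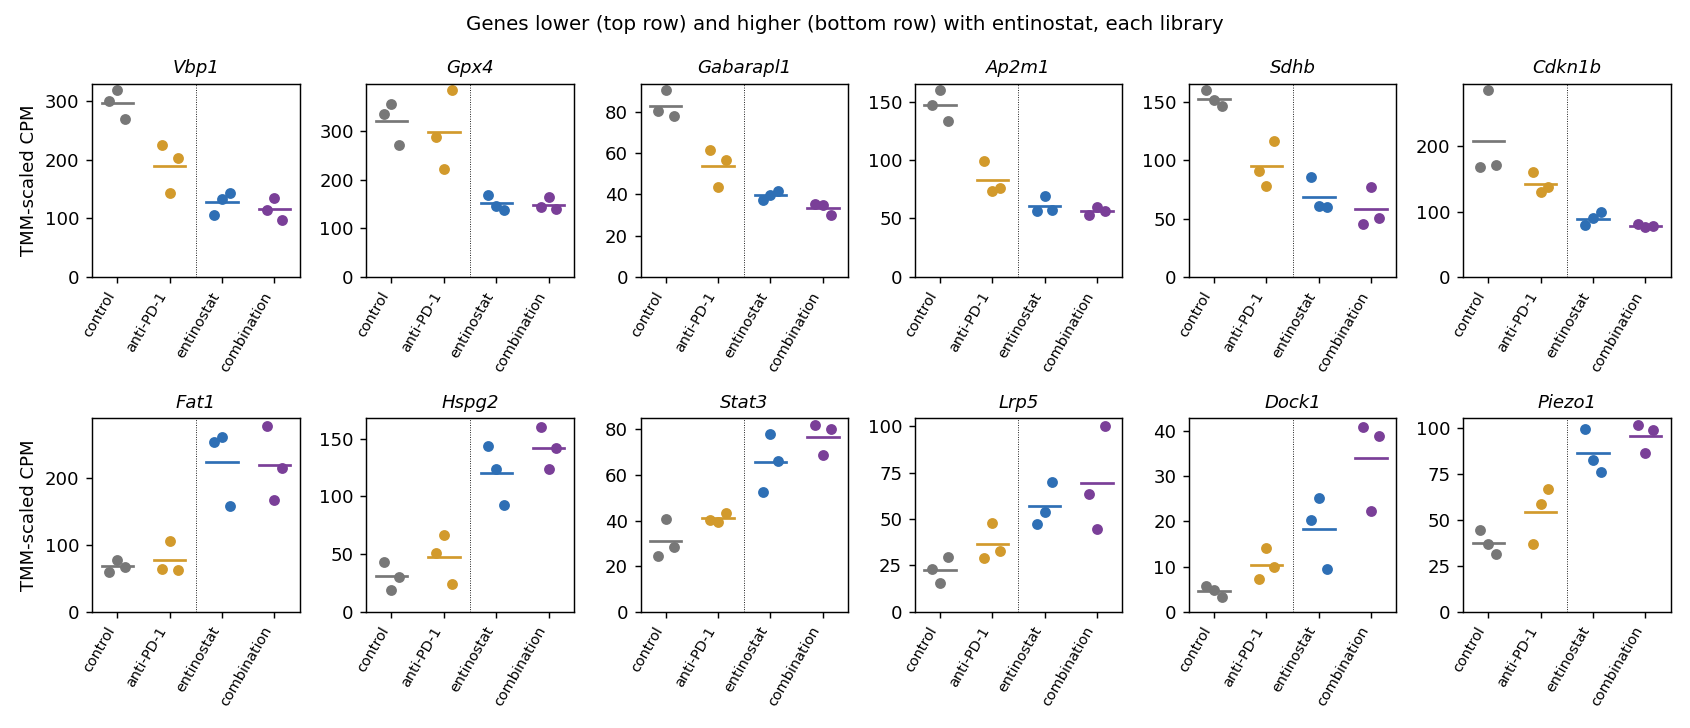
TMM-scaled CPM of 12 genes in each library by group (points; bars mark the group mean of 3); the dotted line parts the groups without entinostat (left) from those with it (right). Genes of the top row fell and those of the bottom row rose; the 6 treated libraries of Gpx4, Gabarapl1, Ap2m1, Cdkn1b, Fat1, Hspg2, Stat3 and Piezo1 lie wholly to one side of the 6 untreated ones.

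Of the 61 lists, that of the machinery that folds new proteins had the largest share of falls. Nascent actin, tubulin and other proteins are passed by prefoldin to the ring-shaped chaperonin CCT, while the Hsp70 and Hsp90 systems with their cochaperones fold many others. Of 36 tested members, 13 fell and none rose (36.1%, against 6.05% of all genes), with a median log2 fold change of -0.58. They comprised the prefoldin subunit Vbp1, the CCT subunits Tcp1, Cct6a, Cct7 and Cct8, the Hsp70 gene Hspa8, its cochaperones Dnaja1, Dnajb1, Dnajb6 and Bag1, and the Hsp90 cochaperones Cdc37, Ahsa1 and Fkbp4. Vbp1 lay between 143 and 318 CPM (median 246) without the drug and between 97.9 and 144 CPM (median 123) with it, so that only the highest treated library reached the lowest untreated one (log2 fold change -0.97 ± 0.16; adjusted p = 0.00915). Hspa8, the constitutive Hsp70, lay between 1854 and 4219 CPM (median 2934) without the drug and between 1321 and 1795 CPM (median 1696) with it, without overlap (-0.80 ± 0.17). Cct6a lay between 494 and 1268 CPM (median 627) without the drug and between 328 and 528 CPM (median 460.3) with it, with overlap (-0.72 ± 0.17; adjusted p = 0.0264). With upper quartile factors 5 members fell, with the length trend removed 8 fell and 1 rose, and with a library left out 2 (without entinostat library 2) to 16 fell.

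Promoters are shown for 2 of these genes and for a gene that rose, to show where the CCAAT and GC boxes counted below lie in them; the differences between sets of promoters were not tested. The RefSeq table (build GRCm38.p6) gave a single start for 10180 tested genes, and windows ran over 300 bases, most of them before the start. CCAAT on either strand was found in 38.3% of all these windows, 31.3% of the 393 of genes that rose, 42.4% of the 656 of genes that fell 10 of 20 (50%) of the folding list, 13 of 27 (48.1%) of the actomyosin list and 16 of 37 (43.2%) of the endocytosis list. GGGCGG, the GC box, was found in 60.8%, 67.2%, 66.8%, 85.0%, 77.8% and 78.4% in the same order, and CACGTG, the E-box, in 9.68%, 10.2%, 11.1%, 5.0%, 7.41% and 8.11%. The AP-1 site TGACTCA was found in 3.68% of all windows, 2.8% of those that rose and 3.05% of those that fell, and the CRE TGACGTCA in 3.05%, 3.05% and 4.73%. A match of letters is not a bound site. Capitals mark CCAAT or GGGCGG on either strand, 5′ to 3′ on the gene's strand.
Vbp1 (chrX:75514047-75514346, plus strand): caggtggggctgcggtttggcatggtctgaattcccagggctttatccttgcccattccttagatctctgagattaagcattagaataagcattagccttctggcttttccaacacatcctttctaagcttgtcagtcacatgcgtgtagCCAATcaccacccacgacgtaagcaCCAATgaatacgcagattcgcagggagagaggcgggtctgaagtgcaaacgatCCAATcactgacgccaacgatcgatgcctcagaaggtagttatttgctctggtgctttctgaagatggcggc
Cct6a (chr5:129787106-129787405, plus strand): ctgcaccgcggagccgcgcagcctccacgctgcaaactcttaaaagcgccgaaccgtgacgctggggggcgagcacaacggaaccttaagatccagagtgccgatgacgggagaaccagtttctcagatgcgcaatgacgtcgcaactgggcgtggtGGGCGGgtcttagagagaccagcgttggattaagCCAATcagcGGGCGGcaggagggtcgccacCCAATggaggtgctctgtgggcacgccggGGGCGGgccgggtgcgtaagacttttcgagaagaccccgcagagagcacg
Hspg2 (chr4:137468553-137468852, plus strand): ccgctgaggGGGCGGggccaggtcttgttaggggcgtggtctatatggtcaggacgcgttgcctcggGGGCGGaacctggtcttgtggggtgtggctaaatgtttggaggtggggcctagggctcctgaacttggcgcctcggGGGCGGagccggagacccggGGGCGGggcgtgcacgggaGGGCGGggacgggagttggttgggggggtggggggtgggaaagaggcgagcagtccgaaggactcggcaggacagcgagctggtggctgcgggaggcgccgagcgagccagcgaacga
The Vbp1 window held 3 CCAAT matches and no GC box, Cct6a held 2 and 3, and Hspg2, the proteoglycan gene described below, held no CCAAT and 5 GC boxes.

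Genes of the translation apparatus fell in part. Of 45 translation initiation and elongation factors 10 fell and none rose (22.2%; median -0.44). They included Eif1ax, needed to scan for the start codon (154 to 308 CPM, median 184, against 84.5 to 123 CPM, median 115; log2 fold change -0.84 ± 0.14), the eIF2 subunits Eif2s2 (-0.89) and Eif2s3x (-0.59), the eIF3 subunits Eif3h (-0.67) and Eif3i (-0.52), and Eif6 (-0.87). Eif1ax did not overlap between the groups. Under upper quartile scaling 2 factors were lower and 1 higher, and with a library left out 1 (without entinostat library 2) to 15 fell. Of 23 cytosolic tRNA synthetases and their scaffolds 5 fell and none rose (21.7%; median -0.42): Gars, Mars and Sars, which charge tRNA with glycine, methionine and serine, and the scaffold genes Aimp1 and Aimp2. Gars lay between 165 and 376 CPM (median 207) without the drug and between 91.8 and 173 CPM (median 145) with it, with overlap (-0.74 ± 0.17; adjusted p = 0.0217). With upper quartile factors 3 of them fell, and with a library left out none (without entinostat library 2) to 8.

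Of 43 subunits of RNA polymerases and general transcription factors, 7 fell and 1 rose (16.3% and 2.33%; median -0.37). The 5 falls in RNA polymerase II were in the smaller subunits Polr2c, Polr2e, Polr2g, Polr2h and Polr2j, joined by Taf9 of TFIID and Polr3k of RNA polymerase III. Polr2e, a subunit shared by all 3 nuclear polymerases, lay between 64.01 and 132 CPM (median 110.3) without the drug and between 47.05 and 62.96 CPM (median 54.6) with it, without overlap (log2 fold change -0.90 ± 0.16; adjusted p = 0.0106). Polr1a, the largest subunit of RNA polymerase I, rose (0.50 ± 0.14; adjusted p = 0.0430). Scaled by upper quartile factors, 4 fell and 3 rose, with the length trend removed 5 fell and none rose, and with a library left out 2 (without entinostat library 2 or 3 or combination library 1) to 8 fell.

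Mitochondrial genes fell in 3 lists that cover fuel oxidation, import and shape. Of 30 genes of the tricarboxylic acid cycle and pyruvate entry 8 fell and none rose (26.7%; median -0.49). Sdhb, the iron-sulphur subunit of succinate dehydrogenase, lay between 77.7 and 160 CPM (median 132) without the drug and between 45.6 and 85.4 CPM (median 60.2) with it, with overlap (log2 fold change -0.93 ± 0.18; adjusted p = 0.0130). Pdhx and Pdhb, components of the pyruvate dehydrogenase complex, fell by 0.89 and 0.74 on the log2 scale, both without overlap. The others were Idh3a and Idh3b, subunits of isocitrate dehydrogenase, Sdhd, the citrate synthase gene Cs and Mpc2, a subunit of the pyruvate carrier. With upper quartile factors 5 fell, and with a library left out 2 (without an entinostat library) to 12.

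Of 32 genes of mitochondrial protein import and quality control 6 fell and none rose (18.8%; median -0.38). All 6 encode import proteins: Tomm6 of the outer membrane and Timm10, Timm13, Timm17b, Timm23 and Timm50 of the intermembrane space and inner membrane. Timm10, a small chaperone of carrier proteins, lay between 39.8 and 79.6 CPM (median 46.6) without the drug and between 22.9 and 36.1 CPM (median 26.3) with it, without overlap (-0.96 ± 0.21). With a library left out 3 (without control library 2 or entinostat library 2 or 3) to 11 of the list fell. Fis1 and Mff, outer membrane proteins that take part in recruiting the fission dynamin, fell by 0.86 and 0.81 without overlap. In the same list of 22 genes Yme1l1, an inner membrane protease, fell (-0.65) and 2 coactivators of mitochondrial gene expression rose, Pprc1 (35.9 to 74.7 CPM, median 48.6, against 81.4 to 96.7 CPM, median 92.6; 0.85 ± 0.18) and Ppargc1b (1.29). Pprc1 did not overlap and passed with the length trend removed (adjusted p = 0.0214). Of the 22 genes of that list, 3 fell (13.6%) and 2 rose (9.09%).

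Of 38 genes of glutathione metabolism and the NRF2 antioxidant programme 5 fell and none rose (13.2%; median -0.31), and the same number fell with upper quartile factors and with the length trend removed. Gpx4, the glutathione peroxidase that reduces lipid hydroperoxides in membranes, lay between 222 and 386 CPM (median 312) without the drug and between 139 and 169 CPM (median 145) with it, without overlap (-1.05 ± 0.15; adjusted p = 0.00703). Sod1, the cytosolic superoxide dismutase, lay between 92.7 and 196 CPM (median 137) without the drug and between 59.4 and 82.9 CPM (median 67.8) with it, also without overlap (-0.97 ± 0.18). Prdx2, a cytosolic peroxiredoxin, lay between 513 and 1251 CPM (median 755) without the drug and between 236 and 422 CPM (median 272) with it (-1.37 ± 0.25), and no treated library reached the untreated range. Sod2, the mitochondrial superoxide dismutase, and Tkt, transketolase of the pentose phosphate pathway, fell by 0.69 and 0.66. With a library left out 3 (without entinostat library 2 or 3) to 8 fell.

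Iron handling split by role. Steap1, Steap2 and Steap3, members of the metalloreductase family, and Fth1, the ferritin heavy chain, rose, while Urod and Blvra, which act in heme synthesis and heme breakdown, fell. Steap2 lay between 3.72 and 16.5 CPM (median 5.20) without the drug and between 14.9 and 23.2 CPM (median 20.1) with it, where only the highest untreated library entered the treated range (1.53 ± 0.29). Steap3 lay between 0.911 and 2.54 CPM (median 1.83) without the drug and between 3.71 and 7.52 CPM (median 4.72) with it, without overlap (1.52 ± 0.33). Under upper quartile scaling 4 members were higher and 1 lower, and without entinostat library 2 only 1 was higher and 1 lower. Fth1 has processed copies in the genome, so its count is uncertain. Steap1 lay between 0.0391 and 0.290 CPM without the drug and between 0.183 and 1.06 CPM with it. At these levels it may have reached the filter on low counts through the treated libraries, and it passed in 3 of the 12 fits that left out a library.

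Genes of one-carbon, nucleotide and polyamine metabolism fell in part. In the one-carbon list 5 of 27 fell (18.5%; median -0.13). Psat1, the aminotransferase of serine synthesis, lay between 148 and 286 CPM (median 206) without the drug and between 84.4 and 158 CPM (median 116) with it, with overlap (-0.87 ± 0.14; adjusted p = 0.00755). The others were the folate enzymes Mthfd2, Mthfd2l, Mthfd1l and Aldh1l2, which act in mitochondria. Mtr, the methionine synthase, rose (26.7 to 43.4 CPM, median 30.1, against 44.3 to 57.3 CPM, median 48.7; 0.65 ± 0.14), but not with the length trend removed (adjusted p = 0.0713). With upper quartile factors 3 members fell, and with a library left out 3 (without entinostat library 2, among others) to 7.

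Among 25 pyrimidine and deoxynucleotide genes 5 fell and none rose (20.0%; median -0.37). Dut, which removes dUTP from the nucleotide pool, lay between 232 and 495 CPM (median 324) without the drug and between 140.2 and 213 CPM (median 185) with it, without overlap (-0.86 ± 0.16), and Cmpk1, the UMP and CMP kinase, between 85.1 and 119 CPM (median 106) without the drug and between 51.8 and 73.9 CPM (median 61.1) with it, without overlap (-0.72 ± 0.13). Uck1, Dctpp1 and Dck fell by 0.86, 0.63 and 0.52, and Dctpp1 did not pass with the length trend removed (adjusted p = 0.116). Without entinostat library 2, 2 of the list fell. In the polyamine list 4 of 18 fell (22.2%): the antizymes Oaz1 and Oaz2, the hydroxylase Dohh that completes hypusine, and Smox, which oxidizes spermine. Dohh lay between 32.6 and 67.9 CPM (median 46.7) without the drug and between 23.8 and 30.3 CPM (median 29.03) with it, without overlap (-0.80 ± 0.15); with upper quartile factors or the length trend removed, and without entinostat library 2 among others, 2 of the list fell. None of the 4 is an enzyme of polyamine synthesis. Purine synthesis genes had 3 falls (Paics, Aprt and Prps1) and 1 rise (Pfas, 0.58) among 25. The falls made up 12%, against 6.05% of all genes, and the rise 4%, near the 3.91% of all genes. The rise was lost with the length trend removed (adjusted p = 0.148), as were 2 of the falls (Aprt and Prps1). Without entinostat library 2 no purine gene fell.

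The list of endocytosis and endosomal sorting held the largest number of falls of the 61 lists. Clathrin and its AP-2 adaptor pull cargo into pits at the plasma membrane, Rab proteins route the endosomes, and ESCRT complexes sort receptors into multivesicular bodies. Of 50 genes 14 fell and 4 rose (28.0% and 8.0%; median -0.17). Ap2m1, the cargo-binding subunit of AP-2, lay between 73.2 and 160 CPM (median 116) without the drug and between 53 and 68.8 CPM (median 56.7) with it, without overlap (-0.91 ± 0.16; adjusted p = 0.0100). Clta, a clathrin light chain, lay between 76.8 and 191 CPM (median 141) without the drug and between 54.7 and 76.5 CPM (median 69.2) with it, without overlap (-0.94 ± 0.19). Cltb, the other light chain, fell by 1.03, also without overlap. The ESCRT genes Tsg101, Vps28, Vps4a, Chmp2a, Chmp4b, Chmp6 and Stam and the Rab genes Rab5a, Rab7 and Rab11a fell by 0.46 (Stam) to 1.01 (Vps28) on the log2 scale, and the AP-2 gene Ap2s1 by 0.64.

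The 4 rises of that list were in a receptor pair and in caveolae. Lrp1, a large endocytic receptor for lipoproteins and protease complexes, lay between 35.9 and 126 CPM (median 62.1) without the drug and between 105 and 185 CPM (median 144) with it, with overlap in part of the range (1.14 ± 0.17; adjusted p = 0.00709). Lrp10 rose by 0.67, and Ptrf (cavin-1) and Ehd2, which coat and hold caveolae, by 0.97 and 0.96. Scaled by upper quartile factors, 8 members fell, with the length trend removed 10 fell and 2 rose, and with a library left out 4 (without entinostat library 2) to 16 fell and 1 (without entinostat library 1 or 2 or combination library 1) to 5 rose. Between the endoplasmic reticulum and the Golgi, 10 of 55 coat, tethering and SNARE genes fell (18.2%) and 2 rose. Arf5, a small GTPase of coat recruitment, lay between 37.6 and 101 CPM (median 56.2) without the drug and between 26.4 and 35.7 CPM (median 30.9) with it, without overlap (-0.99 ± 0.20), and Sec13, of the COPII coat, fell by 0.87. The COPI subunits Cope and Arcn1 fell by 0.72 and 0.46 while Copz2, another COPI subunit, rose by 0.95. With upper quartile factors 6 of this list fell and 4 rose, and with a library left out 2 (without entinostat library 2 or 3) to 14 fell.

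Autophagy genes that fell included those of small ubiquitin-like proteins. Proteins of the LC3 and GABARAP families are attached to the growing autophagosome by an enzyme cascade that includes ATG3 and ATG5. Of 32 genes 7 fell and 1 rose (21.9% and 3.12%; median -0.17), and 4 of the falls were in these families. Gabarapl1 lay between 43.4 and 90.7 CPM (median 69.8) without the drug and between 29.98 and 41.6 CPM (median 36.4) with it, without overlap (-0.88 ± 0.13; adjusted p = 0.00709). Gabarapl2 fell by 0.95, Map1lc3a by 1.13 and Map1lc3b by 1.00. Atg3 and Atg5 fell by 0.66 and 0.77, and Tax1bp1, a cargo receptor, by 0.58. Tfeb, the transcription factor of lysosome genes, rose by 1.46. With a library left out 2 (without entinostat library 2) to 9 genes of the list fell. Of 43 lysosomal genes 3 fell and 1 rose (6.98% and 2.33%, near the shares over all genes), all 4 in the proton pump: Atp6v1h (54.02 to 124 CPM, median 76.9, against 37.4 to 52.8 CPM, median 46.8), Atp6v1a and Atp6v0d1 fell, and Tcirg1, the a3 subunit, rose (8.49 to 17.7 CPM, median 12.2, against 19.6 to 39.8 CPM, median 25.4; 1.03 ± 0.22). Atp6v1h and Tcirg1 did not overlap between the groups.

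Among the genes with the highest CPM that fell were 2 tubulins. Tubb5, a beta-tubulin, lay between 1265 and 3492 CPM (median 2115) without the drug and between 808 and 1323 CPM (median 1052) with it (-1.02 ± 0.20; adjusted p = 0.0132). Tuba1a, an alpha-tubulin of neurons and neuroendocrine cells, lay between 751 and 8115 CPM (median 2001) without the drug and between 388 and 1128 CPM (median 698) with it (-1.89 ± 0.44; adjusted p = 0.0246). Both overlapped between the groups. The cyclophilin gene Ppia, the actin-binding Tmsb4x, the chromatin protein gene Ptma, the ribosomal protein genes Rplp0, Rpl7 and Rps15 and the elongation factor Eef1b2 fell by 0.51 to 1.24, and none of these 7 passed with upper quartile factors or with the length trend removed. These genes have near-identical copies or processed pseudogenes, so reads may have been divided among loci.

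The rises were spread over cytoskeleton, matrix and signalling. Actomyosin generates tension along filaments of actin that alpha-actinins and filamins cross-link and that formins extend. Of 43 genes of this list 10 rose and 2 fell (23.3% against 3.91% of all genes; median 0.46). Actn1, an alpha-actinin, lay between 10.7 and 30.7 CPM (median 19.6) without the drug and between 31.7 and 46.6 CPM (median 38.5) with it, without overlap (0.98 ± 0.22; adjusted p = 0.0199). Myh11, the smooth muscle myosin heavy chain and also a mural cell marker, lay between 2.69 and 7.37 CPM (median 4.82) without the drug and between 6.84 and 14.9 CPM (median 12.1) with it, with overlap (1.24 ± 0.29). The other rises included the formin Diap1, the smooth muscle genes Tpm2 and Mylk, the kinase Rock2, the filamin Flnc, the talin Tln2 and Actn4, by 0.46 to 1.77. Myl6 and Myl12b, light chains of non-muscle myosin, fell by 0.70 and 0.79. With the length trend removed 4 members rose, and with a library left out 1 (without entinostat library 2) to 14. None of the list passed with the fibroblast and mural score as a covariate, where its median was 0.30, nor with the alveolar score, where it was 0.41.

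Dock1, an exchange factor that activates the GTPase Rac, lay between 3.26 and 14.01 CPM (median 6.43) without the drug and between 9.53 and 40.9 CPM (median 23.8) with it (1.86 ± 0.28; adjusted p = 0.00709), and the groups overlapped.

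Proteoglycans of the matrix were among the rises. Hspg2, perlecan of basement membranes, lay between 18.9 and 66.7 CPM (median 36.5) without the drug and between 92.5 and 160.4 CPM (median 132) with it (1.78 ± 0.26; adjusted p = 0.00709), with every treated library above every untreated one. Vcan, versican of the loose matrix, lay between 25.8 and 199 CPM (median 69.5) without the drug and between 103 and 376 CPM (median 275) with it, with overlap (1.68 ± 0.41). Cspg4, the NG2 proteoglycan and also a pericyte marker, lay between 4.77 and 17.9 CPM (median 8.01) without the drug and between 11.5 and 31.2 CPM (median 23.7) with it, with overlap (1.30 ± 0.32). These 3 were the rises among 50 genes of heparan and chondroitin sulphate (6.0%), and Papss1, which makes the sulphate donor, fell by 0.57. Fn1, fibronectin, lay between 64.5 and 344 CPM (median 151) without the drug and between 200.4 and 477 CPM (median 453) with it (1.32 ± 0.36) and did not pass with the length trend removed (adjusted p = 0.0644). Beside these rises, the fibroblast and mural markers rose in 4 of 16 and the score of that list was higher, as given above. With the score as a covariate, or without entinostat library 2 or 3 or combination library 1, 1 gene of the heparan and chondroitin sulphate list rose. The median of that list was 0.265 with the score as a covariate, against 0.187 without it.

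The Wnt genes that rose were coreceptors and nuclear effectors. LRP5 and LRP6 receive Wnt beside Frizzled, and TCF and LEF proteins bind DNA with beta-catenin. Of 56 genes 5 rose and none fell (8.93%; median 0.43). Lrp5 lay between 15.7 and 47.96 CPM (median 29.3) without the drug and between 44.5 and 100.1 CPM (median 58.8) with it (1.13 ± 0.23; adjusted p = 0.0164), and only the highest untreated library entered the treated range. Tcf7l2 lay between 0.354 and 2.93 CPM (median 1.29) without the drug and between 2.29 and 7.40 CPM (median 4.23) with it (1.69 ± 0.42), with a narrow overlap. Lrp6, Tcf7 and Lef1 rose by 0.64, 1.41 and 3.09. Lrp6 did not pass with the length trend removed (adjusted p = 0.0690), and with a library left out 1 (without control library 2, anti-PD-1 library 3 or entinostat library 1 or 2) to 8 rose. Under upper quartile scaling 8 rose. With the fibroblast and mural score as a covariate none of the list rose, and its median was 0.40.

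In cytokine signalling, the shared receptor gp130 passes signals of the interleukin 6 family to JAK kinases and STAT3, and SOCS3 is induced by STAT3 and shuts the receptor off. Of 55 genes of interleukin receptors and JAK-STAT 6 rose and none fell (10.9%; median 0.64). Stat3 lay between 24.4 and 43.3 CPM (median 39.8) without the drug and between 52.5 and 81.98 CPM (median 73.3) with it (0.99 ± 0.15; adjusted p = 0.00709), and Socs3 between 10.1 and 20.04 CPM (median 13.7) without the drug and between 23.6 and 38.5 CPM (median 27.6) with it (1.01 ± 0.18). Neither overlapped between the groups. Il6st, which encodes gp130, lay between 36.2 and 65.2 CPM (median 53.2) without the drug and between 61 and 100.5 CPM (median 88.8) with it, with overlap (0.68 ± 0.18), and did not pass with the length trend removed (adjusted p = 0.123). Jak3, Csf2ra and Ifnar2 rose by 1.21, 1.36 and 0.73. With the fibroblast and mural score as a covariate the median of the list was 0.22 and 2 members rose, and with a library left out 2 (without entinostat library 2) to 7.

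Of 45 genes of NF-kappa-B and TNF receptor signalling 3 rose and none fell (6.67%): Traf3 (16.9 to 34.9 CPM, median 25.04, against 40.4 to 50.6 CPM, median 43.1; 0.81 ± 0.14), an inhibitor of the non-canonical branch, Bcl3 (1.76), a nuclear cofactor of p50 and p52, and the receptor Tnfrsf1b (1.27). Traf3 did not overlap, and without entinostat library 2, among others, 1 of the list rose. The 37 sensors of pyroptosis, necroptosis and innate immunity held no gene past the threshold although their median was 0.56; with the fibroblast and mural score as a covariate that median was -0.02. Complement and coagulation genes had 2 rises among 41 (4.88%, against 3.91% of all genes), C3ar1 and F13a1, which both missed the threshold with the length trend removed and without entinostat library 2, among others. The list had a median of 0.43 that was -0.41 with the same covariate. Macrophages express both C3ar1 and F13a1, and the level of macrophage markers stands above; its part in these values was not tested.

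Receptor tyrosine kinases and growth factors held a few changes. Of 40 receptors 3 rose and none fell (7.5%): Epha2 and Ephb4, receptors of ephrins, and Pdgfra, the PDGF receptor of mesenchymal cells. Epha2 lay between 0.783 and 3.14 CPM (median 1.89) without the drug and between 4.70 and 8.004 CPM (median 6.31) with it, without overlap (1.70 ± 0.32; adjusted p = 0.0130). With a library left out 1 (without anti-PD-1 library 1 or 3 or entinostat library 2) to 7 receptors rose. Of 48 growth factors and binding proteins 6 rose and 2 fell (12.5% and 4.17%; median 0.53). Angpt2, an antagonist ligand of the endothelial receptor Tie2, lay between 7.10 and 17.2 CPM (median 12.3) without the drug and between 18.4 and 30.2 CPM (median 27.8) with it, without overlap (1.08 ± 0.22). Pdgfb, Pgf, Gas6, Fgf11 and Ereg rose by 1.07 to 1.71. Ptn, pleiotrophin, lay between 34.2 and 133 CPM (median 93.5) without the drug and between 10.7 and 40.9 CPM (median 25.2) with it, with overlap, and fell (-1.72 ± 0.35). Fgf13 fell by 2.45. With a library left out 2 (without anti-PD-1 library 1, entinostat library 2 or combination library 1) to 7 of the growth factors rose. With the fibroblast and mural score as a covariate, the median of the receptor list was 0.33, against 0.23 without it. That of the growth factor list was 0.28, against 0.53. Among 34 MAPK feedback regulators 2 rose (5.88%, against 3.91% of all genes) and none fell. Both were Ras GTPase activating proteins, Rasal1 (0.0706 to 1.003 CPM, median 0.189, against 1.17 to 10.7 CPM, median 2.40, log2 fold change 3.19 ± 0.74) and Rasa4 (1.31). Without entinostat library 1 neither passed. At its untreated levels Rasal1 may have reached the filter on low counts through the treated libraries.

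Changes among nuclear receptors were in those for vitamins. Vdr, Rara and Rarg, receptors of vitamin D and retinoic acid, and Crabp2, which carries retinoic acid to them, were the 4 rises among 48 genes, with no fall (8.33%). Rara lay between 1.60 and 10.6 CPM (median 9.38) without the drug and between 12.2 and 23.9 CPM (median 15.6) with it, without overlap (adjusted p = 0.0444). Crabp2 lay between 0.600 and 2.40 CPM (median 0.975) without the drug and between 1.34 and 27.1 CPM (median 2.88) with it, and its highest treated library stood far above the median (2.79 ± 0.79; adjusted p = 0.0442). None of the 4 passed without anti-PD-1 library 1, entinostat library 1, entinostat library 2, combination library 1 or combination library 3.

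Ion channels, among them those that sense stretch and osmotic load, held 4 rises. Piezo1, the channel opened by membrane tension, lay between 31.1 and 66.8 CPM (median 40.7) without the drug and between 76.1 and 102 CPM (median 92.5) with it (1.01 ± 0.17; adjusted p = 0.00908). Trpv4, a calcium channel opened by swelling and warmth, lay between 0.101 and 4.96 CPM (median 1.26) without the drug and between 6.94 and 22.1 CPM (median 11.9) with it (2.85 ± 0.59). Tmem63a, an ion channel opened by osmotic stress, lay between 0.724 and 2.72 CPM (median 1.99) without the drug and between 3.90 and 8.68 CPM (median 6.23) with it (1.87 ± 0.36). None of the 3 overlapped, nor did Ano1, a calcium-activated chloride channel (1.55 ± 0.33). These were the rises among 33 genes (12.1%), with no fall, and with a library left out 3 (without entinostat library 2) to 5 rose. Itpr3, named above, and Plcb3 (4.93 to 12 CPM, median 6.18, against 18.4 to 32.95 CPM, median 23.03; 1.64 ± 0.26), the phospholipase that makes its ligand, also rose without overlap. In the phosphoinositide list of 48, Prkcd, Synj2 and Plcd3 rose and Plcl2, Pip5k1b and Dgki fell (4 rises with Plcb3, 8.33%, and 3 falls, 6.25%); without entinostat library 2, 1 rose and none fell. Ptger3, a receptor for prostaglandin E2, lay between 0.0506 and 0.668 CPM (median 0.299) without the drug and between 0.947 and 12.6 CPM (median 3.76) with it, without overlap, and rose (4.20 ± 0.70, adjusted p = 0.00917). At its untreated levels it may have reached the filter on low counts through the treated libraries.

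Lists of second messengers and tight junctions had shares near those over all genes. In the cAMP list 3 of 47 rose and 2 fell (6.38% and 4.26%), and without entinostat library 2, 1 rose and 1 fell. Pde4a, which breaks down cAMP, the adenylyl cyclase Adcy7 and the anchoring protein Akap13 rose by 1.77, 0.86 and 1.12, while Pkia, the inhibitor of protein kinase A, and Prkar1a, its regulatory subunit, fell by 1.15 and 0.68. Gjd2, a connexin of neurons and endocrine cells, fell (0.835 to 40.1 CPM, median 17.1, against 0.857 to 3.996 CPM, median 1.95; -3.12 ± 0.67), and the groups overlapped through 1 untreated library that was as low as the treated ones. In the polarity complex, Pard6a (13.9 to 36.4 CPM, median 27.4, against 9.26 to 13.3 CPM, median 11.2; -1.27 ± 0.22) and its partner kinase Prkcz (-1.14) fell, while Cgn, cingulin of tight junctions, rose (1.46). These were the changes among 40 genes of tight junctions and polarity (2.5% rose and 5.0% fell). The median of that list was 0.38, and 0.43 with the fibroblast and mural score as a covariate. Pard6a did not overlap. Of 11 tested gap junction and pannexin genes, the list of Gjd2, 1 rose and 1 fell (9.09% each, against 3.91% and 6.05% of all genes). With a library left out 1 of that list rose, and none (without entinostat library 2) to 2 fell.

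Among membrane carriers, Slc1a5, the glutamine carrier, lay between 34.7 and 61.03 CPM (median 45.3) without the drug and between 64.3 and 104 CPM (median 86.5) with it, without overlap (0.90 ± 0.17; adjusted p = 0.0121). Slc7a2, a carrier of arginine and lysine, lay between 24.7 and 48.1 CPM (median 36.2) without the drug and between 47.1 and 147 CPM (median 70.97) with it, with a slight overlap (1.26 ± 0.25), and Slc38a9, the arginine sensor of the lysosome, rose by 0.61. These were the 3 rises among 27 carriers (11.1%), and none fell. With the length trend removed Slc38a9 did not pass (adjusted p = 0.251), and 2 carriers rose and 1 fell. Abca1 and Abcg1, exporters of cholesterol, rose by 0.93 and 0.72, but neither passed with the length trend removed (adjusted p = 0.126 and 0.0794). Abcd4 (1.42 to 3.35 CPM, median 2.07, against 3.48 to 6.75 CPM, median 5.78; 1.34 ± 0.28) and Abcc4 (1.46) rose too, and Abcb10 of the mitochondrion fell (29.4 to 44.8 CPM, median 36.2, against 16.5 to 25.3 CPM, median 18.1; -0.92 ± 0.17), so that 4 of 37 rose, and 1 with the length trend removed or without anti-PD-1 library 1 or entinostat library 1 or 2. Abcd4 and Abcb10 did not overlap. The rises made up 10.8% of the 37 genes and the fall 2.7%.

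Changes in DNA repair were in single genes of several pathways. Rad51b, a gene of homologous recombination, lay between 3.14 and 7.02 CPM (median 5.58) without the drug and between 13.1 and 18.5 CPM (median 13.6) with it (1.41 ± 0.23; adjusted p = 0.00896), and Brca2, which acts in the same pathway, between 44.7 and 74 CPM (median 52.5) without the drug and between 79.7 and 105 CPM (median 92.9) with it (0.75 ± 0.14). Fancd2 of the Fanconi pathway lay between 26.2 and 38.5 CPM (median 32.2) without the drug and between 45.5 and 61.3 CPM (median 49.9) with it (0.66 ± 0.14). None of the 3 overlapped between the groups, and all 3 passed with upper quartile factors and with the length trend removed. They were the rises among 38 genes of homologous recombination (7.89%), where Rad51ap1 fell (-0.52), but not with the length trend removed (adjusted p = 0.0587). With upper quartile factors 8 of that list rose. Prkdc, the kinase of end joining, and Ercc6 of transcription-coupled repair rose by 0.66 and 0.64, but not with the length trend removed (adjusted p = 0.310 and 0.0897). The glycosylase Tdg and the base excision polymerase Polb fell by 0.69 and 0.79. Of 37 genes of mismatch and excision repair 1 rose and 2 fell (2.7% and 5.41%). Of 22 genes of end joining and break signalling 1 rose and 1 fell (4.55% each). These shares were near or under the 3.91% and 6.05% of all genes.

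Genes listed as inhibitory or accessory to the cell cycle moved in both directions, while the inhibitors Cdkn1b and Cdkn2c both fell. Cdkn1b, the inhibitor p27, lay between 129.6 and 285 CPM (median 164) without the drug and between 75.6 and 98.7 CPM (median 79.9) with it, without overlap (-1.04 ± 0.16; adjusted p = 0.00709). Ccnd2, cyclin D2, which is not an inhibitor, rose (2.40 ± 0.47, adjusted p = 0.0143). It lay between 3.02 and 26.1 CPM (median 8.76) without the drug and between 30.2 and 93.05 CPM (median 47.7) with it, also without overlap. Cdkn2c, the inhibitor p18, Ccng2, cyclin G2, and Btg1 fell by 2.46, 0.95 and 0.57. Tob2 and Lmna rose by 0.80 and 0.67. The list of 24 thus held 3 rises and 4 falls (12.5% and 16.7%), and Cdkn1b, Ccnd2 and Tob2 passed in all 12 fits that left out a library. Without entinostat library 1 or 2, 1 of the list fell. Among 29 target genes of p53, whose gene is floxed in these mice, the death receptor Tnfrsf10b rose (2.50 to 6.05 CPM, median 3.37, against 6.95 to 12.3 CPM, median 9.47; 1.37 ± 0.27) and Bax and Ei24 fell (3.45% and 6.9%), Bax not with the length trend removed (adjusted p = 0.0953); without entinostat library 2, among others, neither fell.

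Some of the larger fold changes were in meiotic genes, which somatic tissue mostly keeps near silence. Ccnb1ip1, a ligase of meiotic crossover also known as HEI10, lay between 0.176 and 2.12 CPM (median 0.553) without the drug and between 4.96 and 38.2 CPM (median 15.3) with it, without overlap (4.33 ± 0.61; adjusted p = 0.00703). Dmc1, the meiotic recombinase, lay between 0.0391 and 0.393 CPM (median 0.173) without the drug and between 0.308 and 13.3 CPM (median 1.35) with it, with overlap (4.01 ± 0.96; adjusted p = 0.0264), and its highest value was in 1 library. Of 43 germline genes listed, 27 passed the filter on low counts, and no other of these passed the threshold. A gene that reached the filter through the treated libraries had to be higher there, so no share is read from this list. Igf2bp1, an RNA-binding protein of the embryo, lay between 0 and 0.211 CPM (median 0.0560) without the drug and between 0.214 and 0.779 CPM (median 0.454) with it and rose (2.58 ± 0.69). At these levels Igf2bp1 may likewise have reached the filter through the treated libraries. Among 33 imprinted genes Plagl1 rose (1.73) and Snrpn and Sgce fell (-1.19 and -0.87), shares of 3.03% and 6.06%; without entinostat library 2 none of the 3 passed.

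Genes of RNA decay, RNA modification and cilia rose in numbers that moved with the length trend. Smg1, the kinase of nonsense-mediated decay, lay between 207 and 291 CPM (median 261) without the drug and between 292 and 489.7 CPM (median 426) with it, without overlap (0.70 ± 0.16), and Pan3, of the deadenylase complex, rose by 0.57. These were the 2 rises among 38 genes (5.26%), and none passed with the trend removed. Of 28 genes of RNA modification Ythdc1, Zc3h13 and Igf2bp1 rose (10.7%), the last with the limit on low counts given above. Wtap, of the methyltransferase complex, fell (-0.48, 3.57% of the list), and with the trend removed none rose. Of 50 cilium genes 4 rose (8.0%) and 2 fell, and with the trend removed 2 rose. Without entinostat library 2, among others, no gene of these 3 lists rose. The nuclear RNA Malat1, the rise with the highest CPM, lay between 1236 and 3667 CPM (median 3074) without the drug and between 4845 and 6764 CPM (median 5249) with it, without overlap (1.00 ± 0.23; adjusted p = 0.0228), and passed with the trend removed (adjusted p = 0.0408). Nsd1, Mdn1, Syne2, Prrc2c and Tcf4, other rises of high CPM, did not pass with it removed.

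Lists of stress and growth signalling held few changes. Asns, the asparagine synthetase, lay between 83.2 and 258 CPM (median 144) without the drug and between 46.7 and 117 CPM (median 85.6) with it, with overlap (-0.91 ± 0.22), and Ddit3, the stress factor CHOP, fell by 0.90; both belong to the targets of the integrated stress response, where 2 of 22 fell (9.09%), 1 with the length trend removed and none without entinostat library 2, among others. Rheb, the GTPase that turns on mTORC1, lay between 61.7 and 128 CPM (median 90.1) without the drug and between 46.6 and 66.9 CPM (median 53.4) with it, with overlap (-0.70 ± 0.15; adjusted p = 0.0185). Rictor of mTORC2 rose by 0.43, but not with the length trend removed (adjusted p = 0.392), and these were the changes among 44 genes of PI3K and mTOR signalling (2.27% each way, under the shares of all genes).

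Several lists held little or nothing. No member passed among 21 metallothioneins and zinc carriers, 25 clock genes and 19 squamous and basal genes, nor among the 37 innate sensors given above. Nr1d2, a clock gene, lay between 52.8 and 220 CPM (median 142) without the drug and between 56.4 and 143 CPM (median 102) with it, and Csnk1e, a clock kinase, between 68.1 and 198 CPM (median 109) without the drug and between 94.5 and 166 CPM (median 114) with it, ranges that overlap. Sox2 lay between 2.94 and 93.3 CPM (median 24.9) without the drug and between 1.36 and 64.9 CPM (median 20.5) with it and Elf3 between 0.274 and 12.5 CPM (median 4.43) without the drug and between 3.78 and 26.8 CPM (median 18.5) with it. The squamous list had a median log2 fold change of 0.86 with adjusted p-values that missed the threshold, which does not show that its genes did not differ. Of 48 genes of the nuclear pore 2 fell (4.17%, under the share of all genes), and of 47 protocadherins and cadherins Fat1 alone passed (2.13%).

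Beside the genes for which this is said above, further genes named above or below did not pass with the length trend removed. Of those that rose, these were Abcc4, Actn4, Adamts6, Cgn, Ehd2, Ereg, Fkbp9, Flnc, Ifnar2, Lmna, Lrp10, Mylk, Notch3, Pdgfra, Plagl1, Polr1a, Ppargc1b, Rara, Rock2, Synj2 and Tln2, and of those that fell, Ahsa1, Aimp2, Ap2s1, Atg3, Atp6v0d1, Bag1, Blvra, Cct8, Chmp4b, Chmp6, Ddit3, Dnajb1, Eif3i, Eif6, Fkbp4, Mthfd2, Oaz2, Papss1, Polr2h, Polr2j, Rab7, Sdhd, Smox, Timm13, Tomm6 and Urod.

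Genes were also grouped by the letters of their symbols, in families of at least 12 tested genes. The families rest on the same calls and share genes with the lists. The Timm falls and the Lrp rises below are all genes named above, as are Tcf7 and Tcf7l2. By share of members the 5 with most falls were Ndufa, subunits of respiratory complex I (8 of 14, 57.1%), Lsm, rings of RNA processing (6 of 13, 46.2%), Hist, replication-dependent histones (25 of 59, 42.4%), Timm (5 of 13, 38.5%) and Psmd, lids and bases of the proteasome (5 of 14, 35.7%). None of these 5 families held a rise. With the length trend removed 10 histone genes, 5 Lsm, 4 Ndufa, 4 Timm and 3 Psmd genes fell. The 5 with most rises were Lrp (4 of 12, 33.3%), Adamts, secreted metalloproteases (6 of 19, 31.6%), Adam (4 of 16, 25%), Tcf (3 of 12, 25%) and Fkbp (3 of 13, 23.1%). The Adamts genes were Adamts3, Adamts4, Adamts6, Adamts9, Adamts14 and Adamts20, and 5 of the family rose with the length trend removed, as did 2 each of Lrp, Adam, Tcf and Fkbp. Fkbp9, Fkbp10 and Fkbp11, prolyl isomerases of the endoplasmic reticulum, rose, and Fkbp4 of the cytosol fell. Histone genes lie in clusters of near-identical copies, and their transcripts mostly lack the poly(A) tail used for selection, so their counts are uncertain. Of 36 Cep genes of the centrosome 7 rose (19.4%), and 1 rose with the length trend removed.

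The design holds the drug's effect in 2 strata, without the antibody (entinostat against control) and with it (combination against anti-PD-1), and the strata share no library. Without the antibody 226 genes rose (1.3% of those tested) and 693 fell (3.98%). With it no gene passed by edgeR, while 2168 had an unadjusted p under 0.05; DESeq2 found 429 genes (172 higher and 257 lower) and limma-voom none. Of the 226 genes that rose without the antibody 198 (87.6%) were positive with it, and of the 693 that fell 663 (95.7%) were negative, against 74.4% and 67.4% of all tested genes that were positive or negative without it. Their median log2 fold changes were 1.57 and -1.06 without the antibody, which is the stratum that chose them, and 0.77 and -0.42 with it. Without entinostat library 3, 1 gene was higher and 1 lower without the antibody, and 6 and 36 genes passed without entinostat library 2, 53 and 145 without entinostat library 1 and 54 and 194 without control library 1. Leaving out control library 2 gave 148 and 379, leaving out combination library 1 gave 122 and 412, and upper quartile factors gave 325 and 236.

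**Figure D4:**
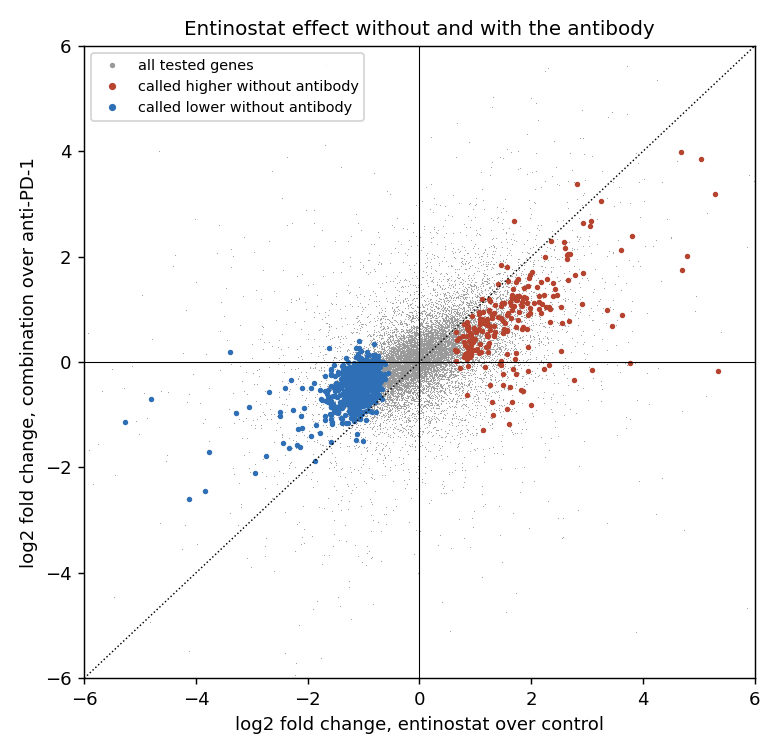
Log2 fold change with entinostat in the strata of the design, entinostat over control (horizontal) against combination over anti-PD-1 (vertical), for all tested genes (grey), the 226 that rose (red) and the 693 that fell (blue) without the antibody; the dotted line marks equal change, and genes beyond 6 on either axis are not drawn. Most red points lie above 0 and most blue points below 0 on the vertical axis, nearer to 0 than the dotted line.

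Of the genes named above, Fat1 rose by 1.72 without and 1.51 with the antibody, Stat3 by 1.07 and 0.91, Gpx4 fell by 1.09 and 1.00, and Scg5 by 1.88 and 1.88. Ap2m1 had values of -1.27 and -0.55, Clta of -1.41 and -0.48, and Sod1 of -1.44 and -0.50. The test of the difference itself, the interaction of drug and antibody, passed for no gene by edgeR (smallest adjusted p = 0.284), with 1052 genes at an unadjusted p under 0.05; DESeq2 found 57 genes (20 higher and 37 lower) and limma-voom none. The 3 genes with the smallest p were Snord104, a small nucleolar RNA, Scarna6, a small Cajal body RNA, and Lars2, a mitochondrial tRNA synthetase. Lars2 had a log2 fold change of -1.61 without the antibody and 0.27 with it.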

How the data were processed

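RNA was taken from dissected flash-frozen lung tumour, and libraries were made after poly(A) selection, per the labels' protocols. The authors deposited a table of unnormalized read counts with 22738 rows and 12 library columns, and each column was used. Per the submitters' processing notes, reads were handled with STAR 2.5.4a, Trimmomatic 0.36 and Trim Galore on build mm9, with R 3.5.1 and DESeq2 1.22.2 also listed, and the labels name TPMCalculator. No source used here gives the annotation, the strand setting or the handling of multiply mapping reads, so genes with near-identical copies, overlapping genes and antisense genes are uncertain. Between 65.3% and 77.2% of counts from 1 to 20 are even in each library, so mates may have been counted separately; a fit to halved counts is an alternative. Libraries were grouped by title. The treatment tag of the combination names the antibody alone, and the title was followed. The batch label is the same in all libraries.

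Counts were fitted in R 4.3.3 with edgeR 4.0.16: filterByExpr over the 4 groups (17426 genes), TMM factors, a model with antibody and entinostat as additive terms, and the robust quasi-likelihood F test. P-values were adjusted by Benjamini-Hochberg over all tested genes, with a threshold of 0.05. A standard error is the log2 fold change divided by the root of F. A fit with a mean per group gave the effect without and with the antibody and the interaction. A cell type score is the mean log2 CPM (prior count 2) of a list's markers. Transcript lengths were matched by symbol for 17152 genes (98.4%), and the length trend was a lowess curve (span 0.3) per library, used as an offset. Alternatives were upper quartile and RLE factors, no filter, DESeq2 1.42.0, limma-voom (3.58.1), a replicate block, no antibody block, 4 group means, removal of structural RNAs, 3 covariates and leaving out each library. The annotation at hand is not of the files' build, so no gene coordinates are given other than those of the RefSeq promoters. The scripts were tested on simulated data.

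The 61 pathway and 14 cell type lists were chosen with earlier results of these data known, and no list was tested as a set. From each list up to 4 genes past the threshold with the smallest adjusted p were named, or the 2 with the highest CPM where none passed. Over all genes, the 15 rises and 15 falls with the smallest adjusted p (log2 fold change of at least 1, no overlap, mean log2 CPM of at least 1), the 10 with the highest CPM in each direction and the 3 smallest interaction p-values were named; a subset is described, and some members are not reported here. Further members of lists were named after their values were seen. Each of the 66 library pairs differed by more than sampling noise (lowest ratio of chi-square to its degrees of freedom, 28.3).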

Additional observations from a re-analysis of the deposited data

Results flagged for a closer look

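Within the 6 libraries of an arm, a library was picked out where its gap to the next one took more than 0.625 of the range of log2 CPM, Dixon's critical value for 6. This was so for 25 of 558 sets of 6 values over 279 named genes, and chance alone gives about 1 in 20. The library picked out most often was combination library 3, in 7 sets. Anti-PD-1 library 2 was highest for Mtr at 43.4 CPM (other libraries of the arm 26.7 to 31.3 CPM). Anti-PD-1 library 2 was lowest for Map1lc3a at 22.8 CPM (other libraries of the arm 40.7 to 51.9 CPM). Anti-PD-1 library 3 was highest for Plcd3 at 4.14 CPM (other libraries of the arm 1.49 to 2.17 CPM). Combination library 1 was highest for Rad51b at 18.5 CPM (other libraries of the arm 13.1 to 14.02 CPM). Combination library 2 was highest for Gas6 at 47.7 CPM (other libraries of the arm 28.1 to 33.9 CPM). Combination library 2 was lowest for Tob2 at 20.9 CPM (other libraries of the arm 26.6 to 30.2 CPM). Combination library 3 was highest for Cgn at 35.9 CPM (other libraries of the arm 10.2 to 14.5 CPM) and Pdgfra at 94.95 CPM (other libraries of the arm 18.6 to 33.02 CPM). Combination library 3 was lowest for Eif1ax at 84.5 CPM (other libraries of the arm 109 to 123 CPM), Eif3i at 188 CPM (other libraries of the arm 255 to 302 CPM), Fn1 at 200.4 CPM (other libraries of the arm 346 to 477 CPM), Prps1 at 40.8 CPM (other libraries of the arm 80.4 to 104 CPM) and Sdhd at 77.5 CPM (other libraries of the arm 107 to 123 CPM). Control library 1 was highest for Ifnar2 at 10.2 CPM (other libraries of the arm 7.69 to 8.15 CPM) and Pdhx at 62.1 CPM (other libraries of the arm 32.7 to 39.9 CPM). Control library 1 was lowest for Ereg at 0.0783 CPM (other libraries of the arm 0.267 to 0.414 CPM). Control library 2 was highest for Cdkn1b at 285 CPM (other libraries of the arm 129.6 to 171 CPM). Control library 2 was lowest for Smox at 3.02 CPM (other libraries of the arm 5.54 to 7.54 CPM) and Syne2 at 93.1 CPM (other libraries of the arm 182 to 255 CPM). Control library 3 was lowest for Gjd2 at 0.835 CPM (other libraries of the arm 14.4 to 40.1 CPM). Entinostat library 1 was highest for Bag1 at 77.8 CPM (other libraries of the arm 48.3 to 56.04 CPM), Chmp4b at 44.6 CPM (other libraries of the arm 29.6 to 33.9 CPM) and Myl12b at 63.1 CPM (other libraries of the arm 34.6 to 42.2 CPM). Entinostat library 2 was lowest for Adamts4 at 6.44 CPM (other libraries of the arm 9.35 to 11.4 CPM). Entinostat library 3 was lowest for Cdc37 at 67.1 CPM (other libraries of the arm 75.1 to 79.6 CPM).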

How the results depend on the processing

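Genes higher and lower with entinostat numbered 1049 and 593 with upper quartile factors, 1397 and 1845 with DESeq2, 1069 and 1640 with the share of structural RNA as a covariate, 76 and 119 with the alveolar score and 84 and 81 with the fibroblast and mural score (the last chosen after seeing the data), against 681 and 1055. With the length trend removed they numbered 426 and 864. Leaving out a library gave 183 to 773 higher and 277 to 1381 lower. The effect without the antibody gave 866 and 1523 genes with DESeq2, 325 and 236 with upper quartile factors, and 1 to 225 and 1 to 785 with a library left out. With the antibody DESeq2 gave 172 and 257 genes and for the interaction 20 and 37, where edgeR gave none under any setting run, also with each library left out. RLE factors, no filter, limma-voom, no antibody block, 4 group means, halved counts and removal of structural RNAs kept both counts of the main comparison within 1.5 times.

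Replicate numbers are shared by the groups, but libraries of the same number did not deviate together: the correlation of their deviations from the group means ran from -0.29 to 0.23 (median -0.07) over 18 pairs, and 1 of 12 libraries matched its own number best. The numbers were therefore not taken as pairs. A replicate block gave 377 higher and 553 lower genes, and without the antibody 69 and 252.

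Of 327 genes followed one by one, 314 passed in the comparison as reported and none reversed its sign under any setting in which it passed. Those that no longer passed numbered 64 with upper quartile factors, 93 with the length trend removed, 260 and 281 with the alveolar and the fibroblast score, and 28 (without anti-PD-1 library 2) to 208 (without entinostat library 2) with a library left out. Each pair of libraries differed by more than counting error, so the precision of a fold change rests on the spread between libraries as well as on depth.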
